A study of Mus musculus with 42 samples.

Results

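The nuclear genes of oxidative phosphorylation encode most subunits of the 5 complexes of the mitochondrial inner membrane. They were taken as the rows whose symbol begins with Nduf and a subunit letter and number, Uqcr, Cox4 to Cox8 or Atp5, together with *Sdha*, *Sdhb*, *Sdhc* and *Sdhd*, without pseudogenes, and were kept where their normalized counts averaged 10 or more. The symbols alone matched 82 genes, of which 80 passed the level in at least 1 of 9 tables, namely 37 of complex I, 4 of complex II, 8 of complex III, 14 of complex IV and 17 of complex V (ATP synthase). The tables list 17457 to 19553 genes each, and 78 to 80 of the genes of oxidative phosphorylation were tested in each. *Cox6a2* and *Cox8b*, muscle forms of cytochrome c oxidase subunits, passed in no table.

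The complexes pass electrons from NADH and succinate to oxygen and use the resulting proton gradient to make ATP. Complex I takes electrons from NADH, complex II from succinate, complex III passes them to cytochrome c, complex IV passes them to oxygen, and ATP synthase lets protons back through its membrane ring. A small set of core subunits is encoded in mitochondrial DNA, so each complex other than complex II needs transcripts of both genomes, and colonocytes are known to burn butyrate from the gut lumen through this pathway.

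Bulk RNA sequencing was done on 42 libraries of 14 groups of C57/BL6 mice of at least 8 weeks, compared in 9 tables that were each scaled on their own libraries. Crypt isolates came from the proximal colon (5 cm next to the cecum) or the distal colon (5 cm next to the anus) of Mtg16-/- mice, of mice homozygous for the P209T point mutation (T/T) and of WT littermates of each colony, where MTG16 (encoded by *Cbfa2t3*) is a transcriptional corepressor. At baseline the groups held 2 WT and 2 Mtg16-/- proximal, 2 WT and 2 T/T proximal, 4 WT and 4 Mtg16-/- distal, and 3 WT and 4 T/T distal libraries. After 5 days of 2% dextran sodium sulfate (DSS), which injures the colon epithelium, and 4 days of recovery there were 3 WT and 4 Mtg16-/- and 3 WT and 3 T/T distal libraries. Whole distal tumors of 3 WT and 3 T/T mice followed 10 mg/kg azoxymethane (AOM) and 3 cycles of 3% DSS (4 days, then 16 days of water). The labels give littermate matching but do not tie each library to a mouse of its own, so p-values measure the spread between these libraries, and in such bulk samples fewer cells of a type and less RNA per cell cannot be told apart.

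Names of the libraries begin with 1 of 6 numbers (4149 to 6217), whose meaning the labels do not give and which is called the name prefix here. Libraries of the tables with recovered reads held 32231400 to 74661900 reads assigned to genes, and normalized totals of the proximal mutant tables were 43757900 to 50396400. *Cbfa2t3* stood at 631 to 1057 normalized counts in Mtg16-/- against 1634 to 3221 in WT proximal crypts, at 424 to 1095 against 1027 to 1809 in distal crypts, where the ranges overlapped, and at 427 to 595 against 1845 to 2519 after DSS. WT replicate 3 after DSS (T/T colony) stood apart from its group, as did WT tumor replicate 3, and both are shown with the results they touch. T/T distal baseline replicate 1 stood apart in its slope of level with GC content (0.56 per 10% GC on the log2 scale, against −0.16 to 0.14 in the other libraries of its table). Among the marker lists, absorptive and goblet markers had the largest summed levels in the baseline WT crypts, and summed fibroblast markers were 291 to 1044 normalized counts in baseline WT crypts against 150580 to 209458 in tumors.

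Stretches of 6 promoters are shown, of *Sdhb*, *Uqcrfs1* and *Uqcr11*, called below between colon segments, and of *Ndufa11*, *Atp5k* and *Uqcrh*, called after DSS. Each runs from 120 bases before to 30 bases after the RefSeq start in GRCm38.p6, 5′ to 3′ on the strand of the gene, with capitals for the letters of a searched motif on either strand. They lie at chr4:140961151-140961300 (plus strand), chr13:30545287-30545436 (minus strand), chr10:80406792-80406941 (minus strand), chr17:56717642-56717791 (plus strand), chr5:108434370-108434519 (minus strand) and chr4:116075041-116075190 (minus strand), in that order.
Sdhb: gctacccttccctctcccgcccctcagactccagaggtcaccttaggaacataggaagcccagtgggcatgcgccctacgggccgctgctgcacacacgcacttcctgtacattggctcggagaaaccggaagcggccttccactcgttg
Uqcrfs1: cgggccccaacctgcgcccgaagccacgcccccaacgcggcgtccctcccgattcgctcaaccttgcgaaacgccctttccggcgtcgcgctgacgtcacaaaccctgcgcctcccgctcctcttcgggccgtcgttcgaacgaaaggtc
Uqcr11: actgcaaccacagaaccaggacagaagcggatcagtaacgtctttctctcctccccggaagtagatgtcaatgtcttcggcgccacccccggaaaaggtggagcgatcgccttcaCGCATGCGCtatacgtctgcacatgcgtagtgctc
Ndufa11: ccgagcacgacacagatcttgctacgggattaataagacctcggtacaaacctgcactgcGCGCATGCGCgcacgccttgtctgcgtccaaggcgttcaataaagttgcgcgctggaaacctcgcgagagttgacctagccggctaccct
Atp5k: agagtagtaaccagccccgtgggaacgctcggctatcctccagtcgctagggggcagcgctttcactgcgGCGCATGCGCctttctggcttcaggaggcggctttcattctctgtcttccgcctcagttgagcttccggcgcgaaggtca
Uqcrh: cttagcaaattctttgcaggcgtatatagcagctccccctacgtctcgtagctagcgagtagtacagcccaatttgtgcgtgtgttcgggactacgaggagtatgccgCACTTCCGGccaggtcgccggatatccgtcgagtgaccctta
The capitals mark GCGCATGCG, a site letter string of NRF1 (nuclear respiratory factor), in *Uqcr11*, *Ndufa11* and *Atp5k* and CCGGAAGTG, of the ETS factor GABP, in *Uqcrh*. In *Ndufa11* and *Atp5k* the matches on both strands overlap. *Sdhb* and *Uqcrfs1* hold none of the searched letters in these stretches. The genes shown are a choice among the called ones that does not follow the size of change. Their motifs therefore do not describe the called genes as a set. *Cox6b2* and *Atp5pb*, also called below and not shown, held no searched string in their windows.

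In the full RefSeq windows, from 250 bases before to 50 bases after the start, 66 of the 80 genes had a promoter, with 71 windows. GCGCATGCG was in 8 of the 66 (12.1%), against 1.95% of 27025 genes with a window. AAGATGGCG, a YY1 string, was in 7 (10.6%, against 1.64%), CCGGAAGTG in 2 (3.03%, against 2.25%) and TCAAGGTCA, an ESRRA string, in 2 (3.03%, against 0.466%). Any of the 4 strings was in 19 (28.8%), against 6.01% of all genes. Both strands were searched, and a match is a description of letters in a window.

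Transcripts of these genes are short. Their lengths (GENCODE vM21) ran from 362 to 3171 bases with a median of 772.5, against a median of 2811.5 over all genes tested between WT colon segments, while their GC content had a median of 51.6% against 50.5%. Many have processed pseudogenes in the mouse genome with which reads can be shared, so the level of a single gene is uncertain to that extent. Changes below are log2 fold changes of the normalized count plus 1, and "called" means an adjusted p under 0.05 in limma with Benjamini-Hochberg adjustment over all genes of the table.

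Levels were compared between genes per kilobase of transcript, as the mean over the 11 WT libraries of the segment table. *Atp5b*, the catalytic beta subunit of ATP synthase, was highest with 53644 normalized counts per kilobase, followed by *Cox4i1* (46880), *Atp5g3* (37675), *Atp5a1* (35298), *Cox6a1* (34134) and *Cox8a* (29953). Genes of complex I reached from 14252 for *Ndufb9* down to 973 for *Ndufb2*, apart from *Ndufa4l2*. The genes of complex II, which has no subunit encoded in mitochondrial DNA, ranged from 11088 (*Sdhd*) and 9475 (*Sdhb*) through 9187 (*Sdha*) to 3240 (*Sdhc*) per kilobase.

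Isoforms of 1 subunit differed widely in level. Of the *Atp5g* genes, which encode the same c subunit of the membrane ring, *Atp5g3* was at 37675 per kilobase, *Atp5g1* at 3936 and *Atp5g2* at 995. The broadly expressed forms *Cox4i1*, *Cox6a1*, *Cox6b1* (24128) and *Cox8a* exceeded *Cox4i2* (2.69), the muscle form *Cox6a2* (0.63), the testis form *Cox6b2* (93.6) and the muscle form *Cox8b* (3.21). *Cox7a1*, a heart and muscle form, was at 2071 per kilobase, below *Cox7a2* (14430) and *Cox7a2l* (6858), a factor of supercomplex assembly. *Ndufa4l2*, a hypoxia-linked paralog, was at 4.39 against 8231 for *Ndufa4*, which is named as a subunit of complex I but is held to belong to complex IV.

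Tumors listed *Cox4i2*, *Ndufa4l2* and *Cox6b2* at higher normalized counts, in a table with its own scale. *Cox4i2* stood at 32.7 to 68.0 in the 6 tumors and at 0 to 5.23 in the 11 baseline WT crypt libraries. *Ndufa4l2* stood at 66.5 to 197 in tumors and at 0 to 17.3 in those crypts, and *Cox6b2* at 166 to 258 against 21.9 to 97.2. The ranges of these genes did not overlap, and no test was made across tables. *Cox6a2* (0 to 5.67) and *Cox8b* (0 to 4.53) stayed low in tumors. Tumors also carried the fibroblast and endothelium markers (11738 to 17906 normalized counts summed for endothelium, against 174 to 405 in crypts), whose part was not tested.

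The nuclear genes took between 1.83 and 2.20% of each crypt library at baseline. Their summed normalized counts were 1.95 to 2.09% of the library in the 4 proximal WT libraries and 1.85 to 2.07% in the 7 distal WT libraries. Mutant baseline libraries held 1.94 to 1.95% (Mtg16-/- proximal), 1.84 to 1.90% (Mtg16-/- distal), 1.84 to 1.96% (T/T proximal) and 1.83 to 2.20% (T/T distal). The 13 subunits encoded in mitochondrial DNA took 7.08 to 8.19% in proximal and 3.66 to 5.25% in distal WT crypts, ranges that do not overlap. After DSS the nuclear share spread to between 1.71 and 2.58% over the 13 libraries. In tumors it was 1.06 to 1.16% and the mitochondrially encoded share 2.15 to 4.07%.

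**Figure D1:**
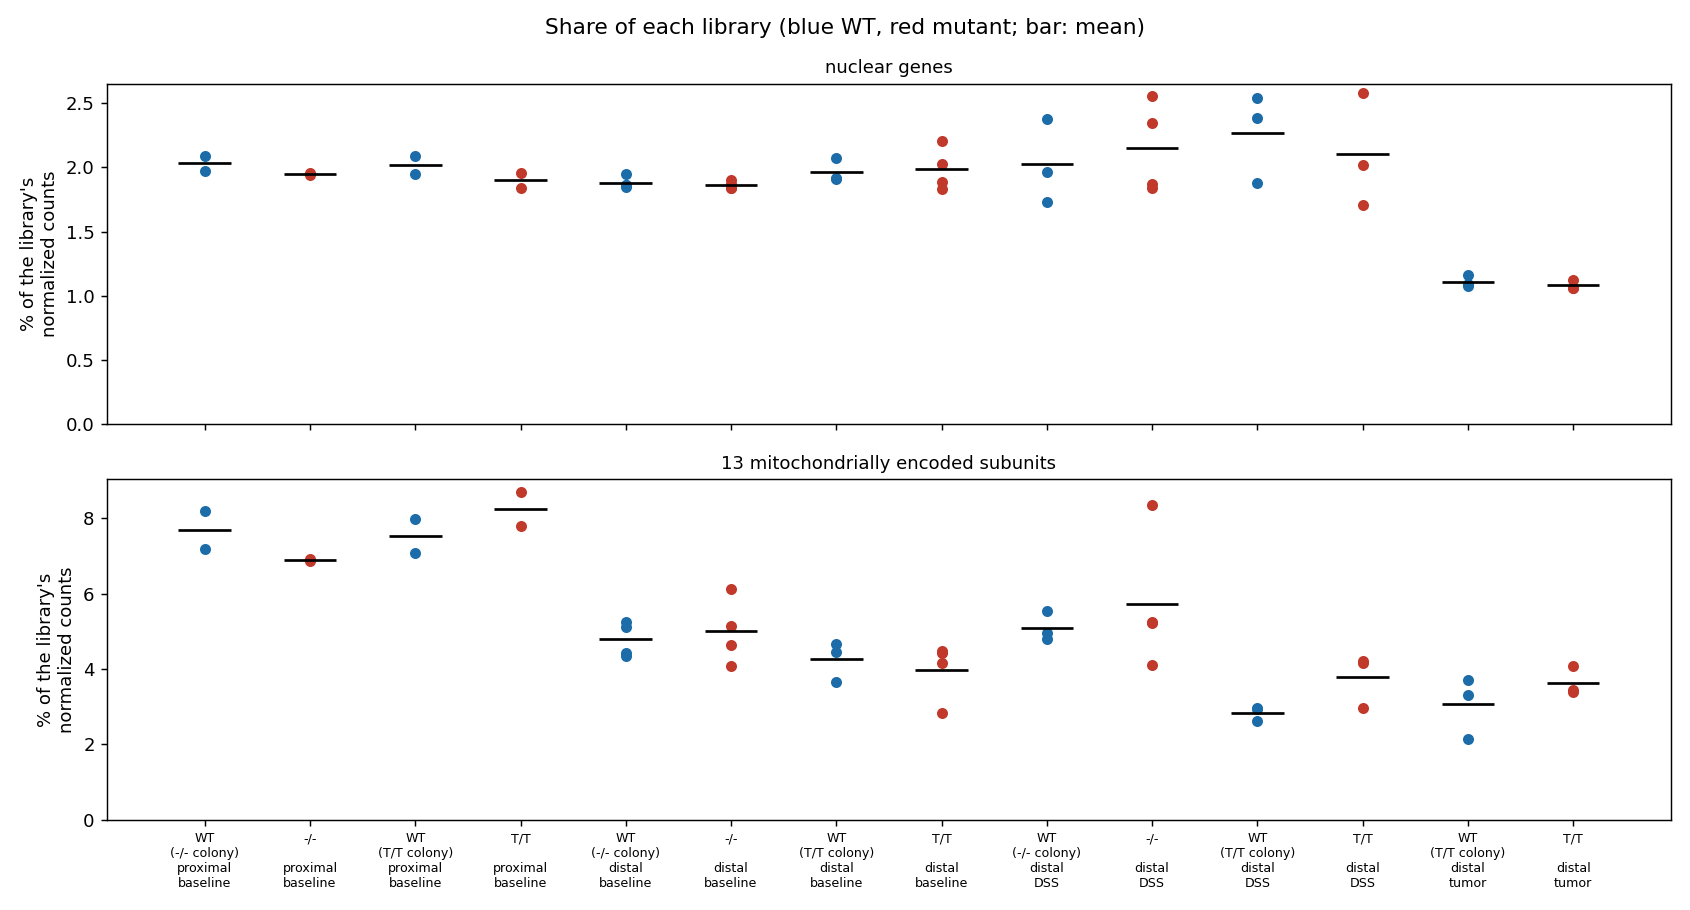
Share of each library's normalized counts (%) taken by the nuclear genes (top) and by the 13 mitochondrially encoded subunits (bottom) in the 14 groups, with 1 point per library and a bar at the mean. Tumors sit between 1.06 and 1.16% in the top panel, below the crypt libraries, and proximal WT crypts between 7.08 and 8.19% in the bottom panel, above distal WT crypts.

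The comparison of distal with proximal WT crypts asks how the colon segments differ without mutation or injury. In distal crypts 19 of 78 nuclear genes were lower and 1 higher (25.6% called, against 42.1% of all 13841 genes tested, 22% lower and 20.1% higher), so the share lower was near that of all genes and the share higher below it. The median change was −0.16 on the log2 scale, beside 0.00 over all genes, and 67 of 78 were negative. With the length trend removed it was −0.08 (0.06 over all genes), with the GC trend removed −0.11 and with both removed −0.09. Lower genes came from all complexes, with 9 of 36 of complex I, 1 of 4 of complex II, 3 of 8 of complex III, 2 of 13 of complex IV and 4 of 17 of complex V. Medians of the complexes lay between −0.11 (complex I) and −0.19 (complex IV).

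*Sdhb*, the iron-sulfur subunit of succinate dehydrogenase (ENSMUSG00000009863.14, GRCm38 chr4:140961203-140979193, plus strand), had the smallest adjusted p. Proximal libraries held 12289, 12949, 12216 and 14177 normalized counts, and the 7 distal libraries ranged from 8884 over a median of 9540 to 10315. Every distal library lay below every proximal one. The means were 9628 ± 571 (SD, n = 7) and 12908 ± 908 (SD, n = 4), a change of −0.42 (SE 0.06, adjusted p = 0.000119 in limma with Benjamini-Hochberg adjustment). Its partners in complex II were not called, at −0.11 for *Sdha*, −0.06 for *Sdhc* and −0.12 for *Sdhd*.

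*Uqcrfs1*, the Rieske iron-sulfur protein of complex III (ENSMUSG00000038462.3, chr13:30540308-30545362, minus strand), was the next most clearly changed of the nuclear genes. Its proximal values were 15603, 16445, 15542 and 18652 and its distal values ran from 12041 to 13675 with a median of 12423, again without overlap. The change was −0.37 (SE 0.07, limma adjusted p = 0.000502 after Benjamini-Hochberg adjustment). *Uqcr11* (−0.19) and *Uqcrb* (−0.18), small subunits of the same complex, were also lower, with overlapping ranges. The change of *Uqcrb* ended at 0.026 once the trends with length and GC were both removed.

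*Cox6b2*, the testis form of a subunit on the outer face of complex IV (ENSMUSG00000051811.14, chr7:4751792-4753094, minus strand), had the largest change at a low level. Proximal libraries listed 60.0, 75.4, 97.2 and 86.3 normalized counts and distal libraries 21.9 to 54.0 with a median of 34.5, a change of −1.16 (SE 0.24, limma adjusted p = 0.0015 with Benjamini-Hochberg adjustment). *Cox5a*, a matrix-side subunit of complex IV, was lower by a smaller step, −0.33 (SE 0.08, limma adjusted p = 0.00404 with Benjamini-Hochberg adjustment). The abundant *Cox4i1* was at −0.22 and not called. Other isoforms missed the threshold too, with *Cox7a1* at 0.23, *Cox7a2* at −0.20, *Cox7a2l* at −0.12, *Cox6a1* at 0.08, *Cox8a* at −0.19 and *Ndufa4* at −0.17.

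Of ATP synthase, 4 of 17 genes were lower. *Atp5mpl*, a small membrane subunit, fell by 0.36 on the log2 scale without overlap, *Atp5j2* (subunit f) fell by 0.24, *Atp5o* (the oligomycin sensitivity protein) fell by 0.23 and *Atp5g1* fell by 0.23. The more abundant c subunit gene *Atp5g3* was at −0.07 and *Atp5g2* at −0.17, neither called. In complex I the accessory subunits *Ndufc1* (−0.35), *Ndufa2* (−0.32) and *Ndufa10* (−0.29) led, and the other 6 lower genes of complex I lay between −0.27 and −0.15. *Ndufa6*, an accessory subunit named here after its values were seen because it was the only one higher, went from 5662 ± 539 (SD, n = 4) to 6788 ± 633 (SD, n = 7), a change of 0.26 (SE 0.08, limma adjusted p = 0.0199 with Benjamini-Hochberg adjustment) that was not called when either proximal library of the T/T colony was left out. Ranges of 7 of the 78 genes did not overlap between segments, against 30.05% of all genes.

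**Figure D2:**
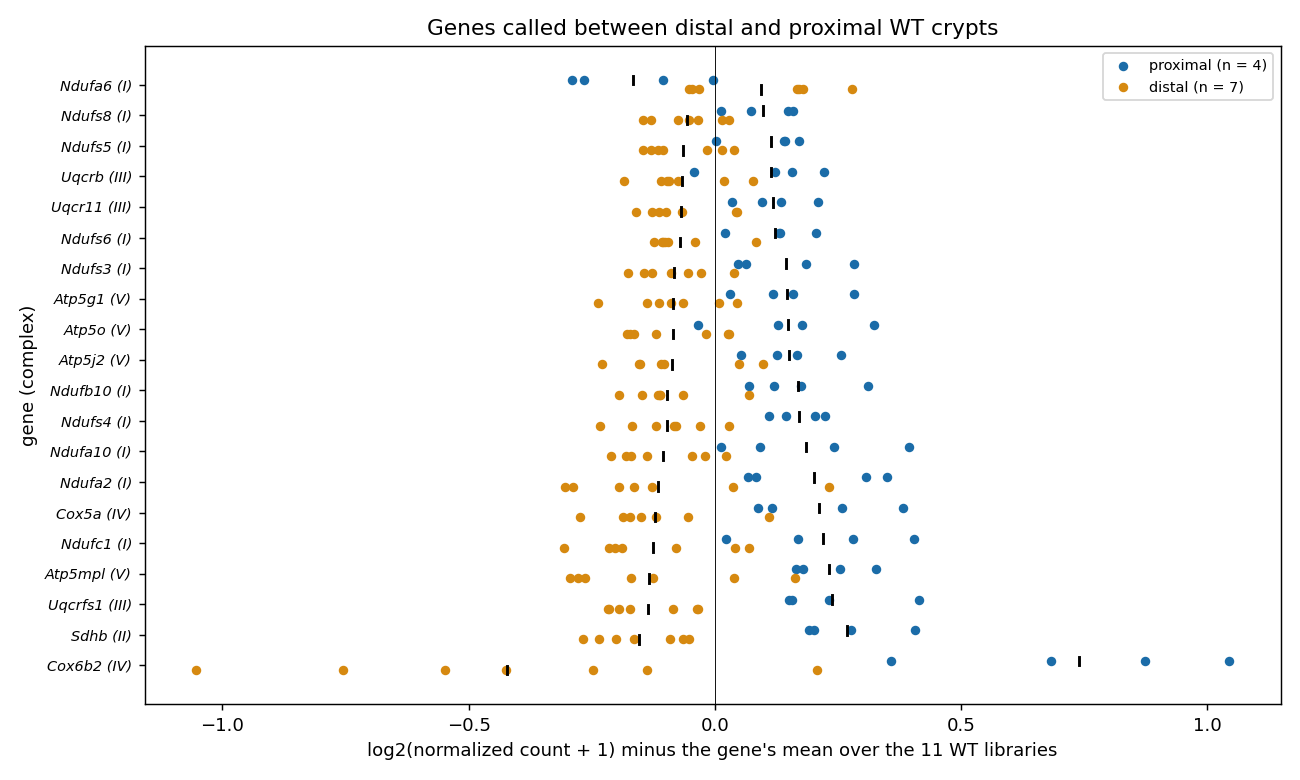
The 20 genes called between distal and proximal WT crypts, with the complex in brackets, as log2 of the normalized count plus 1 minus the mean of the gene over 11 libraries (horizontal axis). Each point is a library (blue proximal, n = 4, orange distal, n = 7) and each tick a group mean. *Ndufa6* is the only gene whose distal mean lies to the right of its proximal mean.

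The subunits encoded in mitochondrial DNA were called lower in distal crypts in 13 of 13 cases (22% of all genes lower), with a median of −0.79 and a range from −0.40 (*ND2*) to −1.27 (*ND6*). *ND1* had 112642 ± 15747 (SD, n = 7) distal and 180396 ± 23590 (SD, n = 4) proximal normalized counts. With the GC trend removed 9 of the 13 were still called lower (44.6% of all genes called), and 7 with length and GC trends removed (45.6%). In limma 1 was called with the name prefix as a covariate (23.0%) and none within prefix 4149 (14.5%). For the libraries of that prefix the mean of the 13, on the log2 scale relative to the table, was 0.27 and 0.63 in proximal and −0.12 and 0.10 in distal crypts. The nuclear median of −0.16 and the mitochondrially encoded median of −0.79 are on the same scale and from the same fit, and their difference was not tested.

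Genes that work beside the complexes are read beside the 22% of all genes lower and 20.1% higher in this table. Of 12 electron carriers and subunits outside the symbol rule 8 were lower and 1 higher (median −0.29), among them *Cycs*, cytochrome c (−0.55), *Cyc1*, cytochrome c1 of complex III (−0.22), and *Ndufab1*, an acyl carrier protein in complex I (−0.39). The 1 higher gene was *Slc25a3*, the phosphate carrier (0.21), whose call was kept in 2 of the 11 fits that left out 1 library. Assembly factors gave 12 lower and 2 higher of 47, mitochondrial ribosomal proteins 26 lower and 3 higher of 78 (median −0.13), and the tricarboxylic acid cycle 7 lower and 3 higher of 17. Cytosolic ribosomal proteins, also short and abundant transcripts, had 14 higher and 2 lower of 90 (median 0.08), and 4 higher without WT proximal replicate 1 of the Mtg16-/- colony. Glycolysis had 5 higher and 3 lower of 18.

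Regulators of mitochondrial biogenesis were divided, with 3 higher and 3 lower of 13. *Tfam*, which packages and transcribes mitochondrial DNA, was at 1707 ± 135 (SD, n = 7) normalized counts in distal and 2463 ± 105 (SD, n = 4) in proximal crypts, a change of −0.53 (SE 0.07, limma adjusted p = 3.47e-05 with Benjamini-Hochberg adjustment). *Ppargc1a*, the coactivator PGC-1α known to drive these genes, was at 2246 ± 623 (SD, n = 7) against 946 ± 117 (SD, n = 4), a change of 1.21 (SE 0.18, limma adjusted p = 0.000127 with Benjamini-Hochberg adjustment). *Ppargc1a* was thus higher where *Tfam* and the subunits called were mostly lower. *Ppargc1b* (0.07) and *Esrra* (0.13) were not called.

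The name prefix of the libraries and the cell markers moved with segment. Within prefix 4149, which holds 2 distal and 2 proximal WT libraries of the Mtg16-/- colony, no gene of oxidative phosphorylation was called in limma (5 of 78 at an unadjusted p under 0.05, 14.5% of all genes called), with a median of −0.11 and 62 of 78 negative. There *Sdhb* was at −0.37 (limma adjusted p = 0.127 with Benjamini-Hochberg adjustment), *Uqcrfs1* at −0.34 and *Cox6b2* at −0.98, each with the sign it had over all 11 libraries. With the prefix as a covariate 4 were called lower, *Sdhb*, *Uqcrfs1* and *Ndufc1* among them, and 23.0% of all genes. Summed absorptive colonocyte markers (8 of 8 listed) were 1093160 to 1439070 in proximal and 332741 to 555834 in distal libraries, goblet markers (7 of 8) 338022 to 427896 and 527939 to 981640, smooth muscle markers (8 of 8) 3447 to 4578 and 1653 to 2430, T cell markers (7 of 8) 2569 to 3960 and 426 to 1481, enteroendocrine markers (8 of 8) 17494 to 20980 and 12837 to 15692, and fibroblast markers (8 of 8) 795 to 1044 and 291 to 531. As sums, in which the most abundant genes weigh most, none of these 6 of 11 lists overlapped between segments, and the other 5 did. Their part in the result was not tested. Across the 78 genes, Spearman's rho of the change with GC content was −0.04 and with transcript length 0.04.

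The comparison of WT distal crypts after DSS with baseline asks how repair after injury changes the crypts. Most nuclear genes stood somewhat higher, with a median change of 0.33 on the log2 scale and 67 of 78 positive, but few passed the test. The median ran from 0.21 (without WT replicate 2 after DSS) to 0.47 (without replicate 3) when 1 library was left out. It was 0.18 with the GC trend removed and 0.04 with length and GC trends removed. Of 78 genes 8 were higher and 4 lower (15.4% called, against 35.6% of all 13566 genes tested, 14% higher and 21.6% lower), and with libraries scaled to equal totals the split was 7 higher and 6 lower (34.2% of all genes called). Complex I had 3 higher and 1 lower of 36, complex II none of 4, complex III 2 and 1 of 8, complex IV 1 and 1 of 13 and complex V 2 and 1 of 17. Ranges of 23 of the 78 did not overlap between the groups, against 55.3% of all genes.

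*Ndufs1*, the largest iron-sulfur core subunit of complex I (ENSMUSG00000025968.16, chr1:63143596-63176833, minus strand), fell most. Baseline libraries held 10936, 10034 and 10590 normalized counts and libraries after DSS 3187, 2891 and 7437, so the groups did not overlap and replicate 3 after DSS lay between the rest. The change was −1.36 (SE 0.35, limma adjusted p = 0.0278 with Benjamini-Hochberg adjustment). *Atp5pb*, subunit b of the stalk of ATP synthase (ENSMUSG00000000563.17, chr3:105942698-105960099, minus strand), went from 20175, 20097 and 21553 to 10435, 9119 and 16135, a change of −0.84 (SE 0.21, limma adjusted p = 0.0274 with Benjamini-Hochberg adjustment). Replicate 3 was again the nearest to baseline. With the GC trend removed *Ndufs1* was at −0.52 and not called (adjusted p = 0.0511) and *Atp5pb* at −0.68 (limma adjusted p = 0.0283 with Benjamini-Hochberg adjustment). *Uqcrb* (−0.43) and *Cox7b* (−0.36), small subunits of complexes III and IV, were also called lower, but were higher, at 1.13 and 1.24, once the GC trend of each library was removed.

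The 8 genes that rose changed by smaller steps, between 0.43 and 0.60. *Ndufa11*, a membrane-arm accessory subunit of complex I (ENSMUSG00000002379.7, chr17:56717767-56722141, plus strand), went from 2581, 2780 and 3145 to 4427, 5036 and 3541 normalized counts, a change of 0.60 (SE 0.16, limma adjusted p = 0.0313 with Benjamini-Hochberg adjustment). *Cox8a*, the broadly expressed form of the smallest subunit of complex IV, went from 14532, 15924 and 17138 to 22237, 23339 and 18808 (0.43). In both, replicate 3 was the lowest library after DSS and still above baseline. *Ndufb10* rose by 0.57, *Uqcr10* by 0.50, *Uqcrh* (the hinge protein of complex III) by 0.50, *Atp5k* (subunit e) by 0.49 and *Atp5d* (the delta subunit) by 0.47, and *Ndufa3*, outside the naming rule, was the eighth at 0.51. With length and GC trends removed *Uqcr10* (−0.0060), *Cox8a* (−0.062) and *Atp5k* (−0.027) no longer stood above 0.

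No gene of complex II passed the test, and of the isoform genes *Cox8a*, given above at 0.43, was the 1 called. *Sdhb* (0.42), *Sdhc* (0.40) and *Sdhd* (0.31) lay above 0 and *Sdha* at −0.21. The c subunit genes were at 0.46 (*Atp5g1*), 0.40 (*Atp5g2*) and 0.29 (*Atp5g3*), and *Cox4i1* at 0.29, *Cox6a1* at 0.29, *Cox7a1* at 0.46, *Cox7a2* at 0.16, *Cox7a2l* at 0.34 and *Ndufa4* at 0.14. The 95% interval lay wholly within a 1.5-fold change in either direction for 14 of 78 genes, and its median half-width was 0.39 on the log2 scale. When 1 library was left out the 14 became 6 (without WT baseline replicate 2) to 28 (without WT replicate 2 after DSS).

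The number of genes called depended on every library of the table. The mean of the nuclear genes on the log2 scale, relative to the table, was −0.18, −0.14 and −0.03 in the baseline libraries and 0.19, 0.30 and −0.14 after DSS, so replicate 3 lay among the baseline libraries. Without replicate 3 after DSS 71 of 78 were called, 64 higher and 7 lower (91.0%, against 66.9% of all genes), and all 12 genes were among them. Without any 1 of the other 5 libraries none was called in limma, with 7 to 15 at an unadjusted p under 0.05. On recovered reads from all 6 libraries edgeR called 8 higher and 2 lower (12.8%, against 32.2% of all genes) and DESeq2 11 higher and 6 lower (21.8%, against 44.1%).

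Base composition moved with the same libraries. The slope of a gene's level with GC content over all genes, per 10% GC, was −0.60, −0.60 and −0.55 on the log2 scale at baseline and 0.74, 0.95 and 0.05 after DSS, with replicate 3 again between. Across the 78 genes, the change had a Spearman's rho of 0.57 with GC content and −0.19 with transcript length, and of 0.71 and −0.20 over all genes tested, where points share libraries and genes are no independent replicates. Of 21 genes with at least 55% GC, 5 were higher and none lower (23.8% higher, against 29.3% of all genes of that class, with medians of 0.40 and 0.36). Of 8 genes under 45% GC, none was higher and 2 were lower (25% lower, against 70.6%, with medians of −0.13 and −1.55). With each library's GC trend removed 5 were called higher and 3 lower (10.3%, against 21.2% of all genes), and with length and GC trends removed 11 and 5 (20.5%, against 26.6%), with a median of 0.04 and 43 of 78 positive. Of the 11 genes named above by the rule for called genes, *Atp5pb* alone kept its direction and call with the GC trend removed, where *Ndufa11* was at 0.26, *Ndufb10* at 0.26 and *Uqcrh* at 0.52, none of them called. With both trends removed *Ndufs1*, *Atp5pb* and *Uqcrh* (0.34) kept theirs. The part of base composition in the result was not tested beyond these values, and the name prefix (5094 at baseline, 5740 after DSS) and DSS cannot be told apart.

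**Figure D3:**
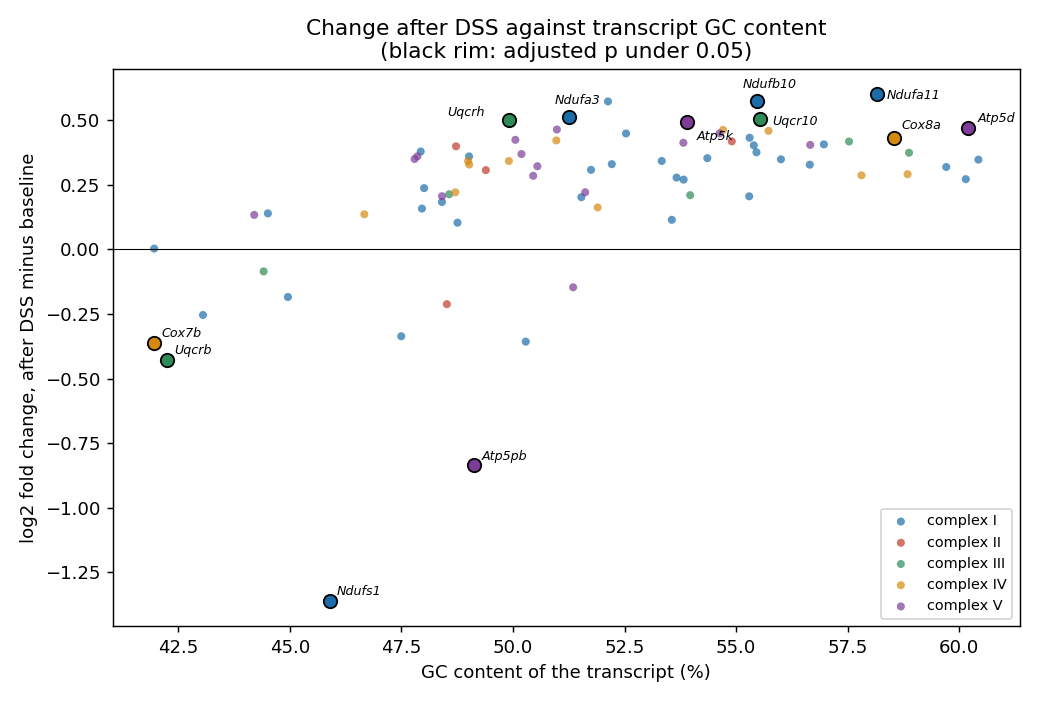
Change after DSS (log2 fold change of the normalized count plus 1, vertical axis) against GC content of the transcript (%, horizontal axis) for 78 nuclear genes, coloured by complex, with a black rim on the 12 called. Genes under 45% GC lie at or below 0.14 and include *Uqcrb* and *Cox7b*, while the 21 genes at 55% or more all lie above 0.

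By transcript length the genes did not stand in order. The 8 under 500 bases had a median of 0.41 (all genes of that class 0.08), the 42 from 500 to under 1000 bases 0.34 (0.18), the 21 from 1000 to under 2000 bases 0.27 (0.12) and the 7 of 2000 bases or more 0.36 (−0.09). With the length trend of each library removed 12 were called higher and 2 lower (17.9%, against 47.5% of all genes), in a fit where the median of all genes moved from 0.00 to 0.24. Among the longest class was *Ndufs1*, the gene that fell most.

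The lists of partner genes were counted in the same fit, where calls again depended on single libraries. They are read beside the 14% of all genes higher and 21.6% lower in this table. Of the 13 mitochondrially encoded subunits 6 were called lower and none higher (median −0.42), but all 13 were called higher with the GC trend removed (21.2% of all genes called). Without WT replicate 3 after DSS 7 of the 13 were lower and 1 higher (66.9% of all genes called). Without any 1 of the other libraries 0 to 4 were lower (0.00739 to 13.4% of all genes called). Without WT baseline replicate 2 no gene of any partner list was called in limma (0.00739% of all genes), although 6 of the 13 had an unadjusted p under 0.05. Glycolysis had 11 higher and 1 lower of 18 (median 0.54, and 0.46 to 0.65 when 1 library was left out), the tricarboxylic acid cycle 4 and 5 of 17, assembly factors 4 and 3 of 47, mitochondrial ribosomal proteins 5 and 6 of 78 (median 0.26) and cytosolic ribosomal proteins 6 and 10 of 90 (median 0.36). Of 12 carriers none was higher and 3 lower, among them *Cycs* at −0.46, which stood at 1.33 with the GC trend removed. Biogenesis regulators had 2 higher and 5 lower of 13. *Tfam* was at 964 ± 448 (SD, n = 3) after DSS and 1921 ± 26.9 (SD, n = 3) at baseline, a change of −1.09 (limma adjusted p = 0.0336 with Benjamini-Hochberg adjustment) that shrank to −0.04 with the GC trend removed. *Ppargc1a* was at −1.69 and not called (adjusted p = 0.0573). Summed goblet markers were 567040 to 689368 at baseline and 1091580 to 1223160 after DSS and cycling cell markers 36105 to 60969 and 15239 to 20234. Plasma cell markers (5 of 8) were 10152 to 10862 and 13354 to 17384, and enteroendocrine markers 15090 to 16855 and 17339 to 23216. As the mean log2 of each list, plasma cell markers overlapped (5.81 to 6.46 and 6.26 to 6.44), as did enteroendocrine markers (9.69 to 9.94 and 9.73 to 10.2). The sums of the other 7 lists overlapped, and the part of these cells was not tested.

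The genotype comparisons ask whether loss of MTG16 or the P209T mutation changes these genes. None was called in any of the 7 in limma, edgeR or DESeq2, the count tools not being used on the proximal mutant tables. In proximal crypts of Mtg16-/- mice 0 of 78 were called (0.0645% of all genes, 0.0359% higher and 0.0287% lower), 1 at an unadjusted p under 0.05, and the median was −0.09. In distal crypts of Mtg16-/- mice it was 0 of 78 (0.239%, all higher), none at the unadjusted threshold and a median of −0.05 (−0.06 to −0.03 when 1 library was left out). Its libraries fall into 2 name prefixes with 2 libraries per genotype in each, where the median was −0.10 (prefix 4149) and −0.0048 (prefix 5094), with none of 78 at an unadjusted p under 0.05 in either. T/T crypts gave 0 of 78 proximal (0.232%, 0.138% higher and 0.0944% lower, 3 unadjusted, median −0.08, and −0.11 to −0.05 with 0 to 6 unadjusted when 1 library was left out) and 0 of 78 distal (0.0369%, all higher, 1 unadjusted, median −0.01), with medians of −0.05 to 0.04 when any 1 library, T/T replicate 1 included, was left out of the T/T distal table. The median in Mtg16-/- proximal crypts ran from −0.14 (without WT replicate 1) to −0.0051 (without WT replicate 2), and with the length trend removed the proximal medians were −0.017 in Mtg16-/- and −0.010 in T/T mice. The 95% interval lay within a 1.5-fold change in either direction for 74, 76, 76 and 77 of the 78 genes in these comparisons, and for 53 in Mtg16-/- proximal crypts at the lowest when 1 library was left out.

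**Figure D4:**
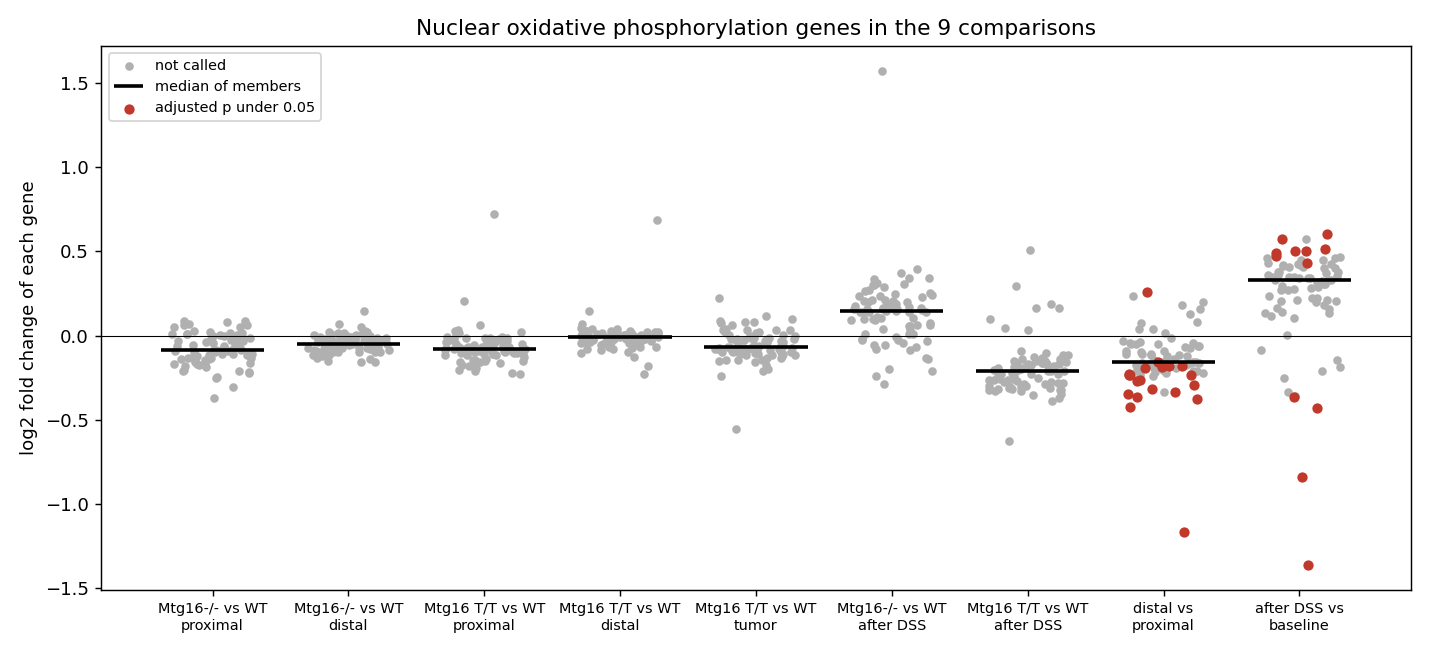
Log2 fold change of each nuclear gene (points) in the 9 comparisons, with red points for an adjusted p under 0.05 and a bar at the median. Red points appear only for distal against proximal (20 genes) and after DSS against baseline (12 genes), and the medians of the baseline and tumor genotype comparisons lie between −0.09 and −0.01.

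Of 2 genes named here after their values were seen, *Cox7c*, a small subunit of complex IV, had the lowest value in Mtg16-/- proximal crypts, −0.37 (SE 0.12, limma adjusted p = 0.68 with Benjamini-Hochberg adjustment). The other, *Cox6b2*, was listed at 58.3 and 72.5 normalized counts in WT and 124 and 93.6 in T/T proximal crypts, a change of 0.72 (SE 0.28, limma adjusted p = 0.39). In distal crypts it was at 32.4, 25.5 and 20.2 in WT and 44.9, 41.8, 34.3 and 46.9 in T/T, a change of 0.68 (SE 0.23, limma adjusted p = 0.86). Ranges did not overlap in either table, nor did those of 45.5% of all genes in the proximal and 7.70% in the distal table, neither change passed the adjusted threshold, and in tumors it was −0.24. *Cox6b2* was also the gene with the largest difference between segments.

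After DSS the libraries of each genotype differed widely among themselves. The mean of the nuclear genes relative to the table was 0.21, −0.28 and −0.16 in WT and 0.36, −0.27, −0.12 and 0.26 in Mtg16-/- libraries, and 0.18, 0.29 and −0.18 in WT and −0.19, −0.36 and 0.26 in T/T libraries. Spread of the libraries within the groups of a table (pooled SD) was 0.28 and 0.29, against 0.05 to 0.10 in the baseline genotype tables. The libraries with a high mean also had a high slope of level with GC content, for example 0.58 in WT replicate 2 and −0.75 in T/T replicate 2 of the T/T table. Across the genes, the change had a Spearman's rho with GC content of 0.52 in Mtg16-/- and −0.39 in T/T mice. Within this spread 0 of 78 genes other than *Ndufa4l2* were called in Mtg16-/- (0.629% of all genes, 0.38% higher and 0.249% lower, none unadjusted, median 0.14) and 0 of 78 in T/T (0% of all genes, 1 unadjusted, median −0.21), where 19 passed the unadjusted threshold without T/T replicate 3 and none without any 1 of the other libraries. Intervals lay within a 1.5-fold change for 33 and 5 of 78 genes, with median half-widths of 0.48 and 0.61. Leaving out 1 library changed the 33 to between 17 (without WT replicate 1 or Mtg16-/- replicate 3) and 51 (without Mtg16-/- replicate 1), and the 5 to between 2 (without WT replicate 1 or 2) and 6.

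Leaving out 1 library moved the median changes of the genotypes after DSS from 0.03 (without Mtg16-/- replicate 1) to 0.27 (without WT replicate 1) in Mtg16-/- and from −0.44 (without T/T replicate 3) to −0.07 (without T/T replicate 2) in T/T crypts, and removing the length trend turned the Mtg16-/- median to −0.08, where the median of all genes was also −0.08. A replicate block treated equal numbers in the Mtg16-/- table as pairs and took nothing from the unpaired Mtg16-/- replicate 4. With it 0 of 78 were called beside 8.78% of all genes, and 4 had an unadjusted p under 0.05. The median was 0.06, and 74 intervals lay within a 1.5-fold change. The block was chosen because deviations of these libraries correlated, so the narrower intervals do not show that they are pairs. In the T/T table summed goblet markers were 691796 to 794365 in T/T and 1152540 to 1329600 in WT libraries, cycling cell markers 27506 to 31390 and 16565 to 21817, myeloid markers 2053 to 2452 and 658 to 1487, and red blood cell markers 541 to 2612 and 152 to 413, none of which overlapped, and their part was not tested.

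**Figure D5:**
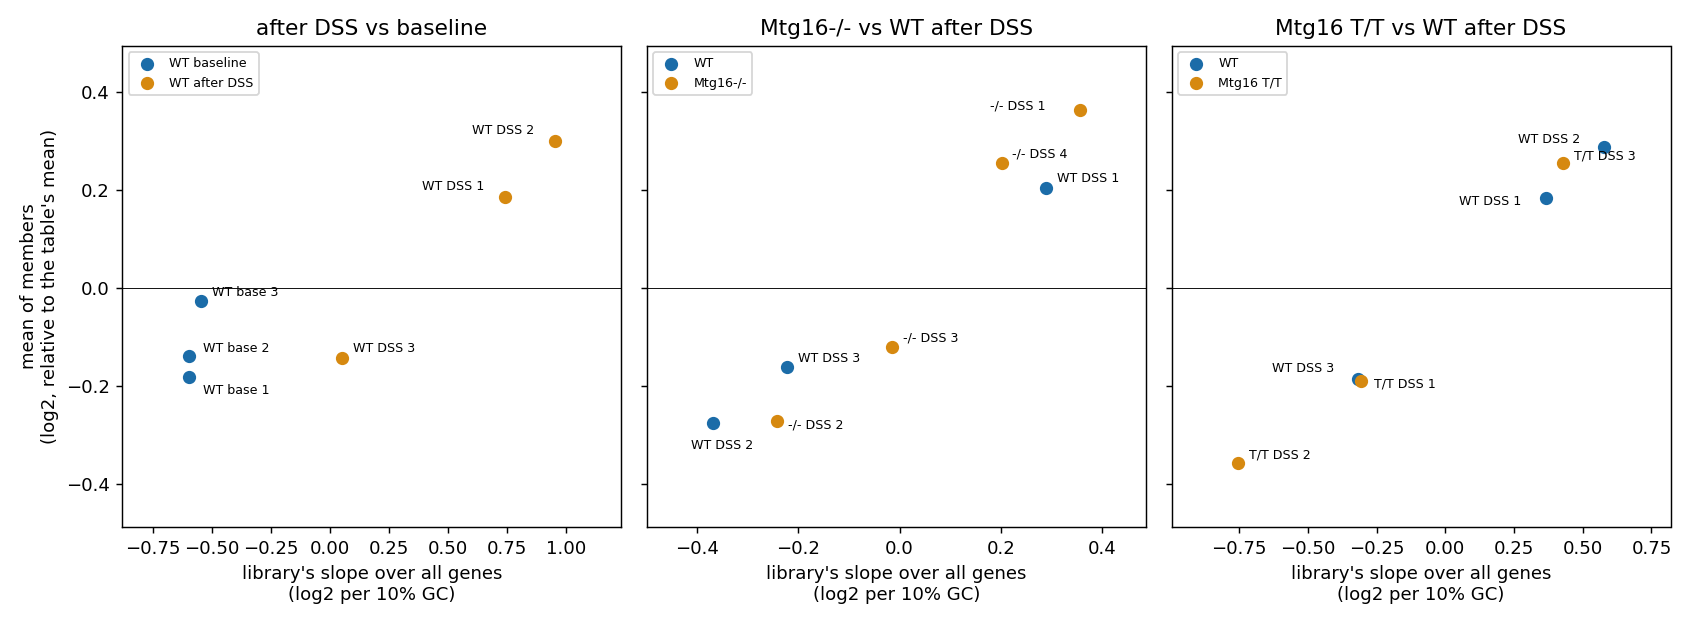
Mean of the nuclear genes in each library (log2, relative to the mean of its table, vertical axis) against the slope of level with GC content over all genes in that library (log2 per 10% GC, horizontal axis), for the 3 tables with libraries after DSS. Points are libraries coloured by group, and WT replicate 3 after DSS lies at −0.14 among the baseline libraries in the left panel.

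*Ndufa4l2* passed the level for testing only through the Mtg16-/- libraries, where it was high, so it is left out of the counts above and its values are a description. It stood at 9.73, 5.86 and 6.38 normalized counts in WT and at 21.7, 26.7, 19.97 and 25.3 in Mtg16-/- crypts after DSS, without overlap (as for 11.4% of all genes), a log2 difference of 1.57. Summed myeloid markers (8 of 8) were 966 to 3709 in WT and 6350 to 20213 in Mtg16-/- libraries, fibroblast markers 900 to 1555 and 1799 to 7459, red blood cell markers (4 of 5) 62.5 to 257 and 455 to 5700, and enteroendocrine markers 15542 to 21476 and 28614 to 30541, and their part was not tested. In tumors *Ndufa4l2* was at −0.55 in T/T. *Cox7a1* was at −0.62 in T/T crypts after DSS (875 ± 203 against 1325 ± 78.7 normalized counts, SD, n = 3 each) with a limma adjusted p of 0.50.

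In tumors 0 of 80 genes were called between T/T and WT (0% of all genes, none at the unadjusted threshold), with a median of −0.07, and 77 intervals lay within a 1.5-fold change. WT replicate 3 stood apart, with a mean of the nuclear genes of 0.15 on the log2 scale relative to the table, against −0.03 and −0.03 in the other WT and 0.03, −0.03 and −0.08 in the T/T tumors, and a GC slope of 0.31 against −0.13 to 0.0032. Without it the median was −0.0020, and 37 of 80 genes were positive in place of 18. *Cox4i2* was at 0.22, *Cox7a1* at 0.00 and *Cox6b2* at −0.24. The 13 mitochondrially encoded subunits were all above 0 in T/T tumors (median 0.26) and in T/T crypts after DSS (median 0.35), and none was called in either. Their mean relative to the table was 0.19, 0.02 and −0.66 in WT and 0.10, 0.31 and 0.05 in T/T tumors, with WT replicate 3 the lowest, and without that library the median in tumors was 0.05 and 11 of 13 were above 0. The change of the nuclear genes in tumors had a Spearman's rho of −0.57 with GC content across 80 genes.

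Whether the effect of genotype itself differed was tested in 5 pairs of tables that share no library. None of 78 genes was called for Mtg16-/- against T/T in proximal crypts (0.345% of all genes called, median difference 0.01), in distal crypts (0%, −0.04) or after DSS (0.0148%, 0.39), nor for after DSS against baseline in Mtg16-/- (0.00738%, 0.20) or T/T (0.234%, −0.20). With the length trend removed the difference after DSS was 0.17 and that of DSS against baseline in Mtg16-/- turned to −0.05, with 25 of 78 positive in place of 66. With the Mtg16-/- table after DSS fitted with the replicate block these differences were 0.32 and 0.11, with 0 of 78 called in either (0.177% and 0.347% of all genes) and 0 and 2 at an unadjusted p under 0.05. Without the block the 5 tests gave 0, 0, 0, 0 and 1 at that threshold. The other lists were nearly as quiet in the 7 genotype tables, where 1 of the cytosolic ribosomal proteins rose in T/T proximal crypts and 1 gene of glycolysis in Mtg16-/- crypts after DSS, and no gene of the other 6 lists was called.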

How the data were processed

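RNA of crypts and tumors was sequenced after poly(A) selection. Per the submitters' processing notes and methods, the authors trimmed reads with fastp 0.20.0, quantified them with Salmon 1.3.0 against GENCODE vM21 (mm10) and summed them per gene, and compared groups with DESeq2 1.26.0 in R 3.6.3. The signal values the authors deposited are normalized counts, whole estimated reads divided by 1 size factor per library, in 9 tables with 59 library columns. Whole reads were recovered in 7 tables (100% of values within 0.02 of a read). The same share was found in the 2 proximal mutant tables, but reads were not taken from them and read-based tools were not run there. Columns of the authors' own comparisons (fold changes with their tests) were not used, and 0 per-sample columns were left unused.

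Within each table, genes averaging 10 or more normalized counts entered limma 3.58.1 with a mean-variance trend (R 4.3.3), after adding 1 and taking log2, with Benjamini-Hochberg adjustment over all its genes and a threshold of 0.05. Differences of genotype effects were taken from the fold changes and standard errors of 2 tables that share no library. Length and GC content come from GENCODE vM21 transcripts, promoters from RefSeq, where 14 of the 80 genes had no window. Cell type markers were summed per library, and the mean log2 of the normalized count plus 1 was also taken over each list. The named genes are, in each comparison with calls, at most 3 called genes per complex with the largest change (a value only where a complex has none called), and in each comparison the tissue isoforms, complex II, the c subunit genes and 7 partners of the pathway. The genes, lists and tests were chosen with earlier results of these data known. Calculations were tested on simulated data.

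Alternatives were a pseudocount of 0.1, no filter, a replicate block, equal totals, removal of each library's length trend, recovered reads in DESeq2 1.42.0 or edgeR 4.0.16, the number that begins each library name (a batch in no label), and leaving out each library. Removal of the GC trend, alone or with the length trend, partner lists and intervals without each library, the replicate block in differences of effects and the count without *Ndufa4l2* were chosen after seeing the data. Of the tables with 3 or more pairs of equal replicate number, Mtg16-/- and WT crypts after DSS alone had a correlation of deviations over 0.1 in every pair (0.55, 0.46 and 0.32), where the numbers are taken as pairs from this correlation alone, the meaning of a number being unlabelled. Figures were drawn with matplotlib 3.10.9 in Python 3.11.15.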

Additional observations from a re-analysis of the deposited data

How the results depend on the processing

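Between colon segments the count of nuclear genes called stayed between 16 and 23 (of 78 tested, or 82 with no filter) under another pseudocount, no filter, equal totals, edgeR, DESeq2 and removal of the length or GC trends or both, beside 20 as reported (34.2 to 45.6% of all genes called). It was 4 with the name prefix as a covariate and 0 within prefix 4149, where 2 libraries stand on each side, and 14 to 29 when 1 library was left out (14 without WT proximal replicate 2 and 29 without WT distal replicate 3 of the Mtg16-/- colony). *Uqcrb* ended at 0.026 with length and GC trends removed. After DSS the count was 8 to 17 under the same settings, beside 12 as reported (21.2 to 47.5% of all genes), and 0 to 71 when 1 library was left out (71 without WT replicate 3 after DSS and 0 without any other). With the GC trend removed *Uqcrb* turned to 1.13, *Cox7b* to 1.24 and *Cycs* to 1.33, and with length and GC trends removed to 0.91, 1.11 and 1.27, while *Uqcr10* turned to −0.0060, *Cox8a* to −0.062 and *Atp5k* to −0.027. A replicate block gave 33 genes between segments (all lower, 42.3% beside 40.7% of all genes) and 2 after DSS (both lower, 2.56% beside 19.7%), where libraries share only a number, those with an unshared one add nothing and not every pair deviated together. In Mtg16-/- and WT crypts after DSS, where equal numbers were taken as pairs from their correlation alone, the block changed no call (0 of 78 without *Ndufa4l2*). The share of all genes called went from 0.629 to 8.78%, a rise that does not show that the libraries are pairs. The 7 genotype comparisons and the differences of effects gave 0 under every alternative run. edgeR and DESeq2 were not run on the proximal mutant tables, and the differences of effects were run under another pseudocount, equal totals and removal of the length trend, and with the block in that table, a choice made after seeing the data. Apart from the removed trends, whose construction takes GC and length out, the cause of these shifts was not tested. With 2 to 4 libraries per group in most tables and WT replicate 3 apart after DSS, few libraries stand behind each call, and depth was not varied.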
